A study of Mus musculus with 6 samples.

Results

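The 36 genes described here encode the coats and cargo receptors that move proteins between the endoplasmic reticulum (ER) and the Golgi. They were taken from the deposited table by their symbols, from a list of genes by function whose rule uses no measured value, though it was drawn up with earlier results of these data known. All 36 were found, each once, among its 54100 genes. The list holds 13 genes of the COPII coat and of ER exit sites, 8 of the COPI coat, 3 Arf GTPases, 3 KDEL receptors, 5 p24 cargo receptors, and a group of 4 made of Lman1, Mcfd2, Surf4 and the golgin gene Golga4. Messenger RNA was counted in mesenchymal progenitors (fibro-adipogenic progenitors, FAPs) sorted as Pdgfra-positive cells from the plantaris, a muscle of the calf, of C57BL/6 mice. The 3 sham libraries came from sham-treated muscle and the 3 overloaded libraries from muscle under overload, and all share the strain label with no genotype given. The sources used here do not give the age or sex of the mice, the way and length of overload, or whether a library is 1 animal or a pool. Every p-value therefore measures only how much these libraries vary, and that variation may be technical.

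Proteins made on the rough ER leave it at exit sites in vesicles coated by COPII. The small GTPase Sar1 starts that coat, Sec23 and Sec24 form its inner layer, in which Sec24 binds cargo, and Sec13 and Sec31 form the outer cage. COPI, whose subunits are recruited together by Arf GTPases, coats the vesicles that carry receptors, escaped ER proteins and Golgi enzymes back. Fibroblasts are secretory cells, and procollagen, their bulk cargo, needs COPII and helper proteins at exit sites to leave the ER.

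Total counts were 500402 to 754456 in sham and 850857 to 1124210 in overloaded libraries. The 10 FAP markers examined all had enough counts to test, and they summed to 44396 to 51427 CPM (counts scaled to a common library total) in sham against 65167 to 72797 CPM under overload. By edgeR at an adjusted p under 0.05, Cd34, Dcn, Pi16 and Dpp4 of that list were lower under overload, Col1a1 and Col3a1 were higher, and the other 4, Pdgfra among them, were not called. The rise of the sum came from Col1a1 and Col3a1, and the other markers together summed lower in every overloaded library. Col3a1 had 10580, 7893 and 14392 counts in sham and 49532, 31781 and 35722 under overload. Dcn had 14737, 8899 and 15884 in sham and 8654, 6870 and 6643 under overload. Reads on genes of olfactory or vomeronasal receptors, sensory genes with no known role in FAPs, are called background reads here. They came to 781 to 1819 in sham against 232 to 1092 CPM under overload. Markers of endothelial cells (8 of 8 with a count) summed to 127 to 222 CPM in sham and 33.5 to 80.3 CPM under overload, and those of leukocytes (6 of 8, with Adgre1 and Lyz2 at 0) to 15.8 to 24.9 and 1.92 to 20.1. Most of the endothelial sum in sham was Tek (89, 51 and 93 counts in sham, 33, 19 and 22 under overload). Without Tek the sums of the groups overlapped. For muscle fibres (7 of 7) the sums were 38.7 to 66.4 and 24.05 to 32.4, for pericytes and smooth muscle (7 of 7) 78.8 to 169 and 96.0 to 139, and for erythroid cells (4 of 4) 0 to 131 and 1.25 to 27.8. Satellite cell markers (5 of 6, with Myod1 at 0) summed to 41.5 to 60.1 and 95.2 to 133, nearly all of it Vcam1, and tenocyte markers (5 of 5) to 110.3 to 143 and 3365 to 4310, nearly all of it Thbs4 under overload. The part of these cells in the results was not tested, and in bulk libraries fewer cells of a type and less RNA per cell cannot be told apart.

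Genes of both coats and of most receptor families rose in overloaded FAPs, and none of the 36 was called lower. By edgeR's quasi-likelihood test at a Benjamini-Hochberg adjusted p under 0.05, 19 of the 36 were higher, where 15% of the 7207 genes tested were, and 18.4% of the 4681 tested genes in the same range of mean level. None was lower, where 14.3% of all tested genes were; at an unadjusted p under 0.05 the count was 1 lower and 22 higher. DESeq2 called 17 higher, where it called 12.3% of all tested genes, and 0 lower. The median log2 fold change of the 36 was 0.64, against -0.02 over all tested genes. Of the 36 values 33 were above 0, where 48.8% of those of all tested genes were. Levels are CPM after scaling between libraries by the trimmed mean of M-values. In 21 genes every overloaded library stood above every sham library and in 1 every one stood below, where the shares over all tested genes were 21.2% and 20.3%. All 36 passed the filter on low counts, the lowest count in a library being 10. Adding the background reads of each library as a covariate left 9 of the 36 higher, where 6.91% of all tested genes were. These reads ranged from 781 to 1819 CPM in sham and 232 to 1092 CPM under overload, so the covariate is partly tied to the group. The effects of group and of background reads cannot be fully told apart in that fit, and why calls were lost was not tested.

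**Figure D1:**
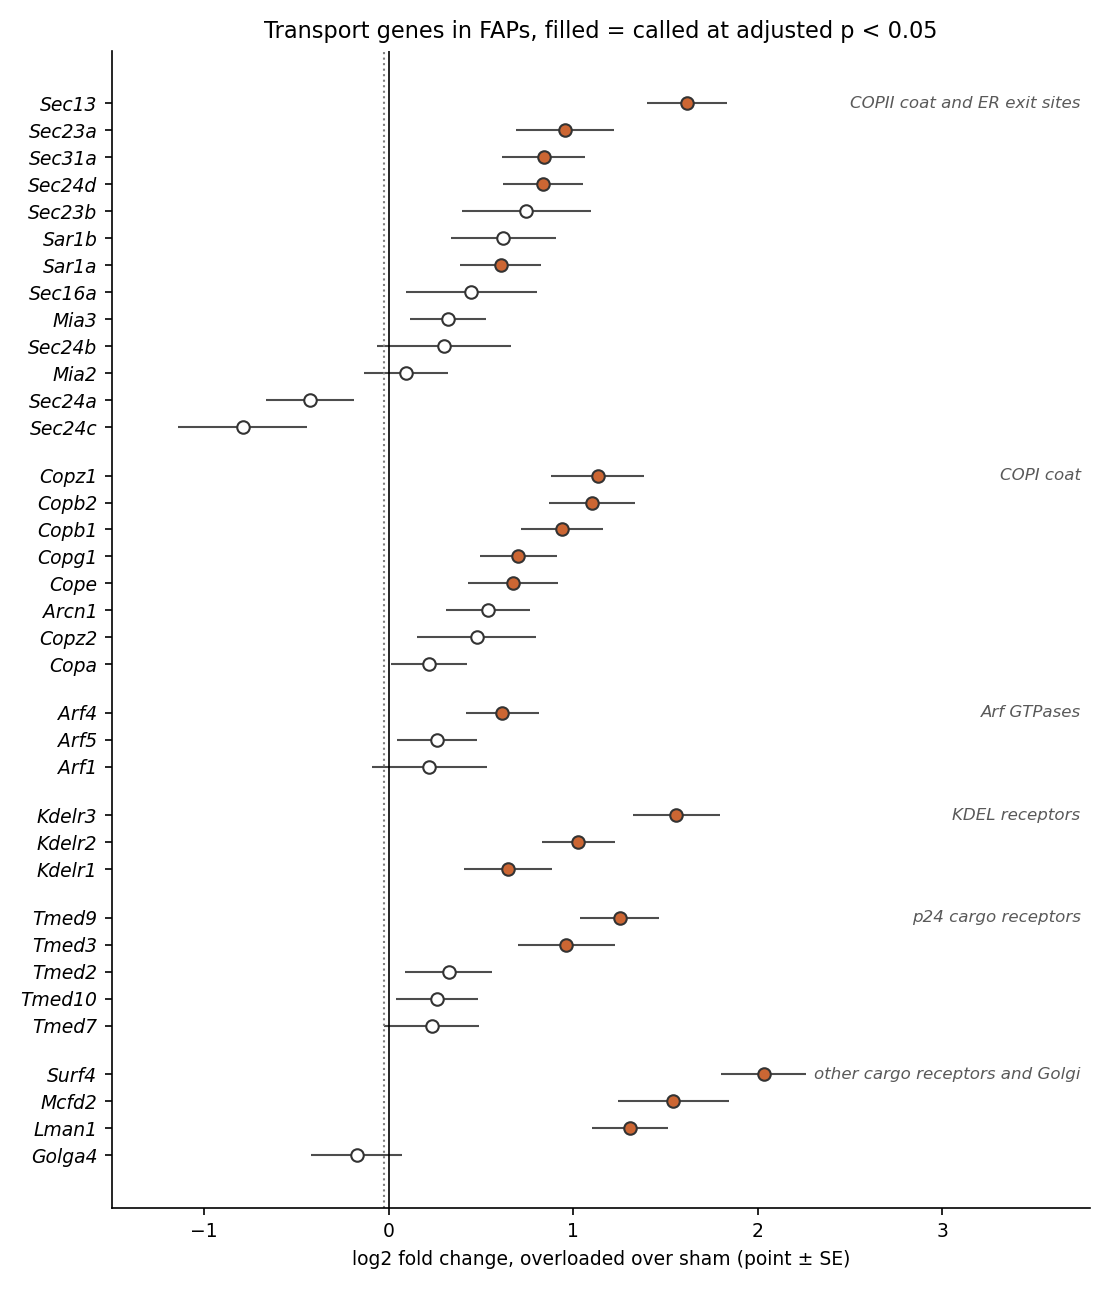
Log2 fold change (overloaded over sham, x axis) of each of the 36 genes, grouped by coat or receptor family, as a point with its standard error. Filled points are the 19 genes called at an adjusted p under 0.05, the dotted line is the median of all tested genes (-0.02), and Surf4 (2.03), Sec13 (1.62) and Kdelr3 (1.56) lie farthest to the right.

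The letters around the start sites of these genes were searched for the sequences bound by factors of the unfolded protein response, by which cells make more of the secretory machinery. RefSeq's promoter table (build GRCm38.p6), with 250 bases before to 50 after each start, held 30 of the 36 genes, and Arcn1, Golga4, Kdelr2, Lman1, Tmed2 and Tmed7 were not matched. The unfolded protein response element, searched as TGACGTGG on both strands, was present in 6 of the 30 genes (20%), against 1.33% of the 5645 tested genes in the table and 0.714% of all 27025. Its inner letters ACGTG, also searched alone on both strands, were in 25 of 30 (83.3%), against 31.1% and 21.8%. Among the 17 genes of the table that rose the element was in 5 (29.4%) and ACGTG in 15 (88.2%), and among the 13 that were not called the element was in 1 (7.69%) and ACGTG in 10 (76.9%). The longer ER stress element and ER stress element II, searched the same way, were in 0 of the 30, and in 0.195% and 0.142% of the tested genes. These are matches of letters, given without a test, and they do not show that a factor was bound.

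The 5 genes that rose and hold the element are printed to show how close it lies to the start, with Surf4, the gene of largest fold change, beside them. Each run is the strand of the gene read 5′ to 3′, from 130 bases before to 20 after the start, and capitals mark TGACGTGG or its reverse complement. The runs lie on GRCm38.p6 at chr15:79516278-79516427 (plus strand), chr9:98563601-98563750 (plus), chr7:114254661-114254810 (minus), chr3:123267366-123267515 (plus), chr12:59011998-59012147 (minus) and chr2:26933492-26933641 (minus).
Kdelr3: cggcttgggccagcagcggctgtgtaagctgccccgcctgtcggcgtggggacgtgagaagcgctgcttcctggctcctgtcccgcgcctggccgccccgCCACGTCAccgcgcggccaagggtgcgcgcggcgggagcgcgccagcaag
Copb2: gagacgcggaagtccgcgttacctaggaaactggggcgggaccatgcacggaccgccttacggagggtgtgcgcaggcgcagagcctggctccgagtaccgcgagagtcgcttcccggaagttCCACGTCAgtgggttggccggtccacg
Copb1: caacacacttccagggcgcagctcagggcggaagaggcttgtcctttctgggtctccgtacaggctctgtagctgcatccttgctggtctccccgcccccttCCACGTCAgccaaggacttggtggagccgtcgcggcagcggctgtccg
Sec24d: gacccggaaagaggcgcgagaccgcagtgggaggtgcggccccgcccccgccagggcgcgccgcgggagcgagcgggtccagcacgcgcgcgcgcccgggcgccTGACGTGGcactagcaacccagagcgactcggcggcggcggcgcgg
Sec23a: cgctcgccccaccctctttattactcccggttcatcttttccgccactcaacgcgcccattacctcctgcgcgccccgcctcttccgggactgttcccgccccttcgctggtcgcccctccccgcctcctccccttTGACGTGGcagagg
Surf4: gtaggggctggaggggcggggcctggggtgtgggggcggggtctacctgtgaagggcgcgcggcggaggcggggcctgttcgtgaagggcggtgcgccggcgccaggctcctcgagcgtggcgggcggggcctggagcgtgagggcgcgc
Counted to its first printed base, the element began 30 bases before the start in Kdelr3, 28 in Copb1, 26 in Sec24d and 7 in Copb2, and 6 bases after it in Sec23a. These starts are those of RefSeq's table. By the GENCODE M21 positions used for the genes here, the element of Copb1, Sec24d and Copb2 lies inside the gene. Surf4 held neither the element nor ACGTG in its window. That window lies inside the Surf4 gene by GENCODE M21, so the bases before its GENCODE start were not searched. The windows of Sec24b, Mia2 and Tmed9, which were counted among the genes with ACGTG, also lie inside their genes by GENCODE M21. Arf1, which was not called, carried the element 84 bases before one of its annotated starts and 21 after another.

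**Figure D2:**
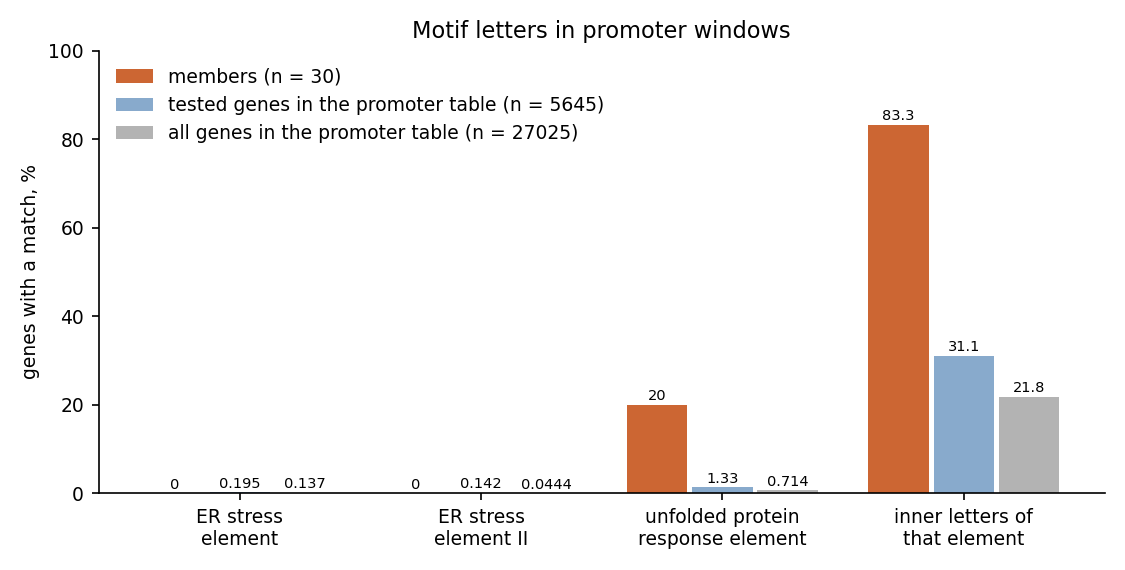
Share of genes (y axis, %) whose promoter window holds each motif on either strand, for the 30 listed genes in RefSeq's table, the 5645 tested genes and all 27025 genes. The listed genes stand at 20% for the unfolded protein response element and 83.3% for its inner letters, ACGTG, above both other bars, and at 0 for both ER stress elements.

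Most of the listed cargo receptors and receptors that retrieve ER proteins rose. Of the 11 such genes (3 KDEL receptors, 5 p24 genes, Lman1, Mcfd2 and Surf4), 8 rose, where 15% of all tested genes did. Their median log2 fold change was 1.03. Other receptor genes, such as Cnih1 and the p24 genes Tmed4 and Tmed5, are not among the 11 and are counted with the accessory factors below. Surf4 (chromosome 2, 26920040 to 26933928), a receptor for soluble cargo leaving the ER, stood at 93.1, 99.6 and 76.7 CPM in sham libraries 1 to 3 against 315, 450.2 and 334 CPM in libraries 1 to 3 under overload. Each overloaded library held more than 3 times the level of any sham library, and the log2 fold change (the fitted difference given for each gene) was 2.03 ± 0.23 (SE; adjusted p = 5.59e-08, edgeR), a fold of 4.09. An exon of Surf4 overlaps one of Surf2 on the opposite strand, and without a stated strand setting their reads there cannot be told apart.

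Lman1 and Mcfd2 encode a receptor complex, made of the lectin ERGIC53 and a calcium-binding partner, that carries glycoproteins such as coagulation factors from the ER. Lman1 (chromosome 18, 65980738 to 66022580) stood at 215, 191 and 217 CPM in the sham libraries against 559.8, 436 and 549 CPM in those under overload. The groups were well apart, with a log2 difference of 1.31 ± 0.21 (SE; adjusted p = 1.32e-05, edgeR). Mcfd2 (chromosome 17, 87254443 to 87265935) stood at 32.9, 33.2 and 26.9 CPM in the sham libraries against 74.1, 75.2 and 121 CPM in those under overload, with overloaded library 3 highest. It rose from 31.0 ± 3.55 CPM in sham to 90.3 ± 27.03 CPM (mean ± SD of 3 libraries here and wherever ± follows a CPM value), with a log2 difference of 1.54 ± 0.30 (SE; adjusted p = 0.000214, edgeR). Golga4, a golgin of the trans-Golgi that tethers vesicles, was at 89.6 ± 9.04 CPM in sham against 79.3 ± 11.7 CPM under overload with overlapping groups and was not called (edgeR adjusted p = 0.648).

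KDEL receptors bind ER chaperones that have escaped to the Golgi, by the signal at their carboxyl end, and return them in COPI vesicles. All 3 rose. Kdelr3 (chromosome 15, 79516411 to 79527739) stood at 126, 78.8 and 87.5 CPM in the sham libraries against 240.5, 288 and 340.1 CPM in those under overload, with a log2 difference of 1.56 ± 0.23 (SE; adjusted p = 7.00e-06, edgeR). Kdelr2 (chromosome 5, 143403838 to 143421901) stood at 392, 334 and 348 CPM in the sham libraries against 653, 798 and 744 CPM in those under overload, with a log2 difference of 1.03 ± 0.20 (SE; adjusted p = 0.000183, edgeR). Neither gene's groups overlapped. Kdelr1, at 205, 159.7 and 96.9 CPM in the sham libraries against 234, 217 and 271 CPM in those under overload, had the lowest value of the 3, with a log2 difference of 0.65 ± 0.24 (SE; adjusted p = 0.0392, edgeR). Its sham libraries were spread widely, and the call was lost in 7 of the 14 alternative settings (other scalings, filters, tests or covariates, or 1 library left out), among them without sham replicate 3 (log2 fold change 0.41, edgeR adjusted p = 0.262). It was also lost without sham replicate 2 (0.0782), overloaded replicate 1 (0.0556) and overloaded replicate 3 (0.119), and with DESeq2 (adjusted p = 0.0656), over a range of 0.00923 to 0.262. An exon of Kdelr3 overlaps Ddx17 on the opposite strand.

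**Figure D3:**
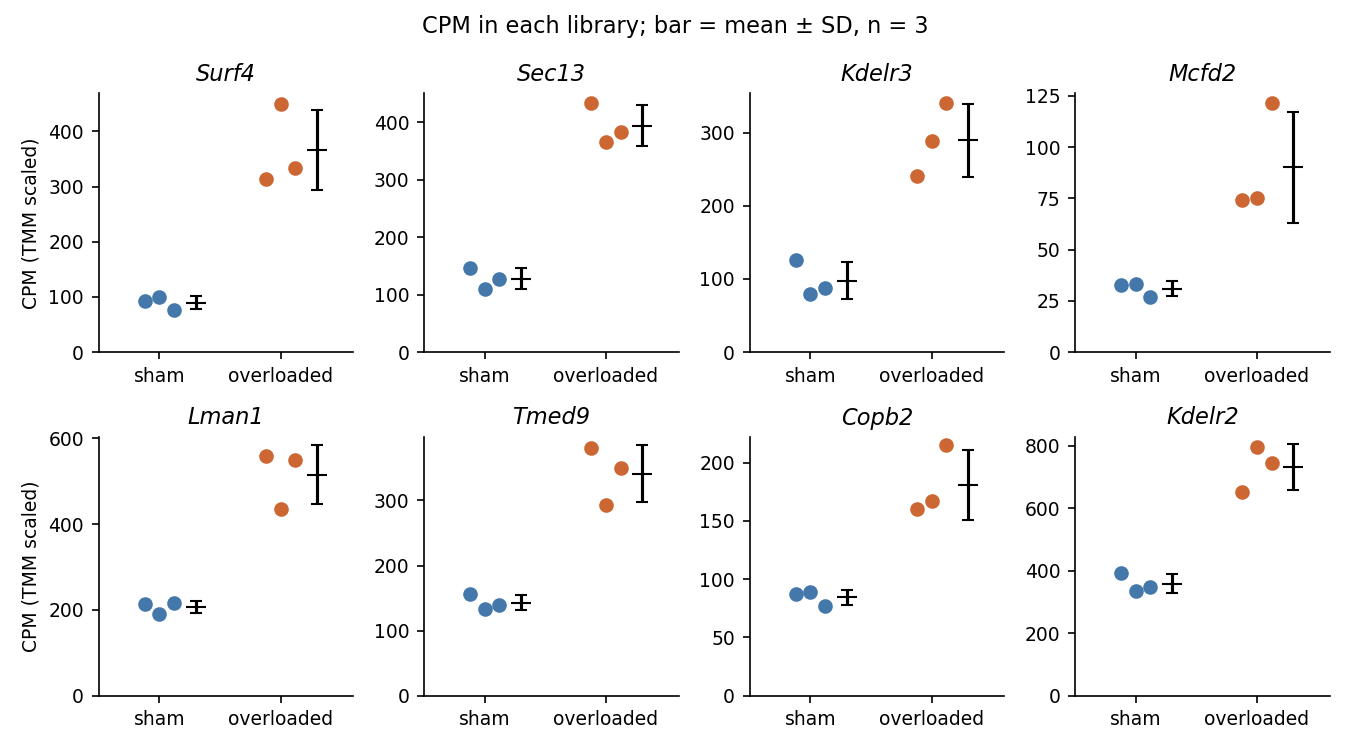
CPM (y axis, from 0) in each of the 3 sham (blue) and 3 overloaded (orange) libraries for the 8 genes called in every alternative setting, with the mean and SD of each group beside the points. In all 8 panels every overloaded library lies above every sham library, from Surf4 (sham 76.7 to 99.6, overloaded 315 to 450.2 CPM) to Kdelr2 (sham 334 to 392, overloaded 653 to 798 CPM).

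The p24 proteins span the membrane of early secretory vesicles, bind both coats and help to export proteins with lipid anchors. Tmed9 (chromosome 13, 55573732 to 55597697) stood at 156, 133 and 139.9 CPM in the sham libraries against 379.9, 293 and 349 CPM in those under overload, with a log2 difference of 1.25 ± 0.21 (SE; adjusted p = 4.15e-05, edgeR). Tmed3 stood at 67.3, 56.0 and 47.1 CPM in the sham libraries against 127, 80.3 and 124 CPM in those under overload, with a log2 difference of 0.96 ± 0.26 (SE; adjusted p = 0.00581, edgeR). In both the groups were apart. With the background covariate the Tmed3 call was lost (log2 fold change 0.75, edgeR adjusted p = 0.235). The other 3 listed p24 genes were not called and their groups overlapped (lowest edgeR adjusted p = 0.321). The p24 genes Tmed4 and Tmed5, counted below with the accessory factors, were not called either. Their log2 fold changes were -0.54 and 0.08 (edgeR adjusted p = 0.258 and 0.856). Tmed2 was at 102 ± 12.2 CPM in sham against 127 ± 17.1 CPM under overload, Tmed7 at 92.5 ± 29.5 CPM in sham against 107 ± 21.1 CPM under overload and Tmed10 at 149 ± 24.9 CPM in sham against 179 ± 19.5 CPM under overload. An exon of Tmed7 overlaps Ticam2 on the same strand.

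In the COPII coat and at ER exit sites, 5 of 13 genes rose, where 15% of all tested genes did. The median log2 fold change of the 13 was 0.61. Sec13 (chromosome 6, 113728062 to 113740743), an outer cage subunit that also belongs to the nuclear pore, changed most. It stood at 146, 109.9 and 128 CPM in the sham libraries against 434, 366 and 383 CPM in those under overload, with a log2 difference of 1.62 ± 0.22 (SE; adjusted p = 1.06e-06, edgeR). Every overloaded value was more than 2 times the highest sham value. Sec31a, its partner in the cage, stood at 210.5, 135 and 213 CPM in the sham libraries against 307, 285 and 415 CPM in those under overload, with a log2 difference of 0.84 ± 0.22 (SE; adjusted p = 0.00483, edgeR). Without sham replicate 2, the lowest sham library for this gene, its log2 fold change was 0.67 and its edgeR adjusted p 0.0501. Without sham replicate 2 the COPII count was 3 of 13, where that fit called 932 of all 7849 genes it tested higher. With the background covariate it was 1, Sec13, where that fit called 6.91% of all tested genes higher.

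In the inner layer, 2 of 6 genes rose, where 15% of all tested genes did. Sec23a, the Sec23 form needed for collagen export in the skeleton, stood at 47.3, 39.4 and 49.8 CPM in the sham libraries against 89.5, 92.8 and 85.6 CPM in those under overload, with a log2 difference of 0.96 ± 0.27 (SE; adjusted p = 0.00641, edgeR). The groups were apart and each was tight. Sec23b was at 44.4, 39.4 and 35.0 CPM in the sham libraries against 35.6, 53.9 and 111 CPM in those under overload, and overloaded library 3 alone stood far above sham. It was not called (log2 fold change 0.75, edgeR adjusted p = 0.111), but was without overloaded replicate 1 (log2 fold change 1.09, 0.0208), over a range of 0.0208 to 0.764. Of the 4 Sec24 cargo adaptors, Sec24d rose. It stood at 231, 274 and 416 CPM in the sham libraries against 598, 517 and 533 CPM in those under overload, with a log2 difference of 0.84 ± 0.22 (SE; adjusted p = 0.00373, edgeR). Its overloaded libraries lay above the sham ones, of which library 3 was highest. Sec24c stood at 35.8, 47.7 and 37.7 CPM in the sham libraries against 19.2, 18.8 and 31.2 CPM in those under overload, lower in every overloaded library, and did not pass the test (log2 fold change -0.79, SE 0.35, edgeR adjusted p = 0.0882). Sec24a was at 115 ± 19.6 CPM in sham against 86.2 ± 8.36 CPM under overload (edgeR adjusted p = 0.184) and Sec24b at 24.6 ± 7.01 CPM in sham against 30.2 ± 1.46 CPM under overload (0.578), with overlapping groups in both. An exon of Sec23a and one of Sec24c each overlap another annotated gene on the opposite strand.

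Sar1a, a form of the GTPase that starts the coat, stood at 139, 137 and 126 CPM in the sham libraries against 202, 184 and 226 CPM in those under overload, with a log2 difference of 0.61 ± 0.22 (SE; adjusted p = 0.0341, edgeR). The groups were apart, but the call was lost in 7 of 14 alternatives. These included leaving out sham replicate 2 (edgeR adjusted p = 0.0693), sham replicate 3 (0.105) or overloaded replicate 3 (0.108), over a range of 0.0286 to 0.281. Sar1b, the form known for export of large lipoprotein particles, was at 94.5, 45.6 and 49.8 CPM in the sham libraries against 119, 67.7 and 108 CPM in those under overload and was not called (log2 fold change 0.62, edgeR adjusted p = 0.104). Its groups overlapped through sham library 1 and overloaded library 2, and it was called without sham replicate 1 (log2 fold change 1.08, edgeR adjusted p = 0.0145) or overloaded replicate 2 (0.84, 0.0270), over a range of 0.0145 to 0.72. Sec16a, a scaffold of exit sites, was at 25.7 ± 10.4 CPM in sham against 35.7 ± 3.35 CPM under overload and was not called (edgeR adjusted p = 0.373). Mia3, which encodes TANGO1, the exit-site protein that helps to load procollagen, was at 253, 255 and 316 CPM in the sham libraries against 395, 315 and 323 CPM in those under overload and was not called (log2 fold change 0.32, SE 0.21, edgeR adjusted p = 0.253). Its relative and partner Mia2 was at 113, 106 and 113 CPM in the sham libraries against 119, 118 and 118 CPM in those under overload. These values did not overlap, yet the log2 fold change was 0.10 (edgeR adjusted p = 0.802).

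Among genes of the COPI coat, 5 of 8 rose, where 15% of all tested genes did. All 8 log2 fold changes were above 0, with a median of 0.69. Copb2 (chromosome 9, 98563721 to 98588382), the beta-prime subunit, stood at 87.3, 89.2 and 76.7 CPM in the sham libraries against 161, 167 and 215 CPM in those under overload, with a log2 difference of 1.10 ± 0.23 (SE; adjusted p = 0.000584, edgeR). Copb1, the beta subunit, stood at 155, 102 and 139.9 CPM in the sham libraries against 234, 263 and 269.5 CPM in those under overload, with a log2 difference of 0.94 ± 0.22 (SE; adjusted p = 0.0016, edgeR). In both the groups were apart, and both carry the promoter element shown earlier. Copz1, the zeta subunit, stood at 87.3, 47.7 and 55.2 CPM in the sham libraries against 142, 130.4 and 149 CPM in those under overload, with a log2 difference of 1.13 ± 0.25 (SE; adjusted p = 0.000969, edgeR). Copg1, the gamma subunit, rose from 183 ± 13.2 CPM in sham to 298 ± 30.4 CPM, with a log2 difference of 0.70 ± 0.21 (SE; adjusted p = 0.0107, edgeR). Neither gene's groups overlapped. Cope, the epsilon subunit, stood at 87.3, 85.0 and 71.3 CPM in the sham libraries against 113, 162 and 115 CPM in those under overload, with a log2 difference of 0.67 ± 0.24 (SE; adjusted p = 0.0359, edgeR). Its call was lost in 7 of 14 alternatives, among them leaving out sham replicate 2 (edgeR adjusted p = 0.0698), sham replicate 3 (0.131) or overloaded replicate 2 (0.164), and with DESeq2 (adjusted p = 0.0633), over a range of 0.0270 to 0.164. The other 3 subunits were not called. Arcn1, the delta subunit, stood at 116, 91.3 and 113 CPM in the sham libraries against 148, 153 and 168 CPM in those under overload with groups apart (log2 fold change 0.54, edgeR adjusted p = 0.0725). Copa, the alpha subunit, was at 313 ± 47.4 CPM in sham against 364 ± 60.0 CPM under overload (edgeR adjusted p = 0.467) and Copz2, the second zeta form, at 35.4 ± 11.7 CPM in sham against 50.5 ± 9.32 CPM under overload (0.283). With the background covariate 2 of the 8 were called, Copb2 and Cope, against 6.91% of all tested genes. Exons of Copa and Copg1 overlap other genes on the opposite strand.

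Of the 3 Arf GTPases, which recruit COPI and other coats to Golgi membranes, 1 rose, where 15% of all tested genes did. Arf4 stood at 458, 351 and 429 CPM in the sham libraries against 628, 667 and 606 CPM in those under overload, with a log2 difference of 0.62 ± 0.20 (SE; adjusted p = 0.0179, edgeR). The groups were apart, and without sham replicate 2, the lowest sham library, the call was lost (log2 fold change 0.52, edgeR adjusted p = 0.107). Over all alternatives its adjusted p ranged from 0.00871 to 0.177. Arf1 was at 47.9 ± 15.5 CPM in sham against 55.5 ± 15.4 CPM under overload (edgeR adjusted p = 0.644). Arf5 was at 769, 946 and 775 CPM in the sham libraries against 759.9, 1379 and 844 CPM in those under overload, where overloaded library 2 stood above all others (log2 fold change 0.26, edgeR adjusted p = 0.392). Without overloaded replicate 2 its log2 fold change was -0.03. Exons of Arf4 and Arf5 overlap other genes on the opposite strand.

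Related genes were then set against each other within each library, as the log2 ratio of their CPM with 1 CPM added to each, for 11 pairs. A ratio within a library shows unequal change and not which gene changed. In 5 pairs the overloaded and sham ratios did not overlap. The exact two-sided permutation p was 0.1 for each of these, the smallest that 3 libraries against 3 allow. After Benjamini-Hochberg adjustment over the 11 pairs it was 0.22. No pair could have passed the cutoff used for genes, whatever its ratios, so this test cannot decide whether any pair changed. A pair with no difference between groups would separate with that same probability of 0.1. How often pairs of other genes separate was not tested. The ratio of Sec24d to Sec24c was 2.65, 2.50 and 3.43 in sham and 4.89, 4.71 and 4.05 in overloaded libraries, a difference of 1.69. That of Kdelr3 to Kdelr1 was -0.70, -1.01 and -0.15 in sham and 0.04, 0.41 and 0.33 in overloaded libraries, a difference of 0.88. For Kdelr3 to Kdelr2 the difference was 0.55. In these 3 pairs the overloaded ratio was the higher one. It was lower for Sec24a to Sec24b (difference -0.72) and for Copz2 to Copz1 (-0.65). Ratios overlapped for Sar1a to Sar1b (difference -0.06), Sec23a to Sec23b (0.37), Mia3 to Mia2 (0.23), Arf4 to Arf1 (0.40), Arf4 to Arf5 (0.41) and Kdelr2 to Kdelr1 (0.33). Without sham replicate 3 the ratios did not overlap for 8 of the 11 pairs. Smaller groups separate more easily, so this count cannot be compared with the 5 pairs of all libraries. Pairs that share a gene, such as those of the KDEL receptors, are not independent.

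**Figure D4:**
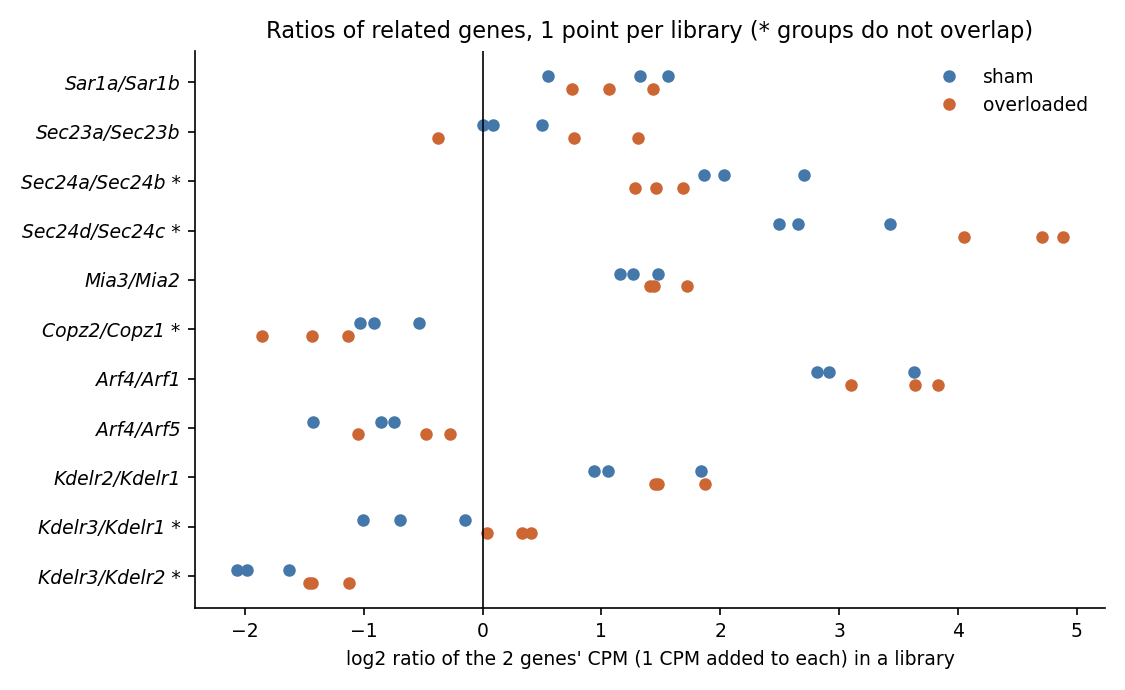
Log2 ratio (x axis) of the CPM of 2 related genes in each of the 3 sham (blue) and 3 overloaded (orange) libraries, for 11 pairs. A star marks the 5 pairs whose groups do not overlap, among which Sec24d to Sec24c moved most (sham 2.50 to 3.43, overloaded 4.05 to 4.89).

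The same steps need tethers, SNARE proteins and regulators, and 97 further genes of ER to Golgi transport were read from the same fit. Of the 69 with enough counts to test, 18 were called higher (26.1%, against 15% of all tested genes), 1 lower (14.3% of all tested genes were) and 50 neither, with a median log2 fold change of 0.36. Leaving out overloaded replicate 3 gave 11 higher genes of the 69, where that fit called 853 of all 7539 genes it tested higher. The background covariate gave 4 of the 69, where it called 6.91% of all tested genes higher. The count of lower genes ranged from 0 to 2 over the alternatives. Of the 18, Arfgap1, Gosr2, Blzf1 and Creb3 reached the minimum count of the filter in all 3 libraries of the overloaded group only, so they entered the test because they were high there. Their values are given as a description with no test, and the counts are no support for a direction. Of the 53 tested genes that reached the minimum in all 6 libraries, 14 were called higher and 1 lower. Each of the 36 coat and receptor genes reached that minimum in all 6 libraries.

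Among 15 tested accessory factors of the coats, 5 rose, where 15% of all tested genes did. Of the 15 log2 fold changes 12 were above 0 and 3 below. Those below 0 were Tmed4 (-0.54), Ergic3 (-0.52) and Ergic2 (-0.40), none of them called. Cnih1, a cornichon cargo receptor, rose from 179.7 ± 37.2 CPM in sham to 389 ± 104 CPM, with a log2 difference of 1.11 ± 0.23 (SE; adjusted p = 0.000426, edgeR). Yipf5 rose from 62.0 ± 16.6 CPM in sham to 145 ± 38.1 CPM and Tfg, which organises exit sites, from 95.4 ± 9.06 CPM in sham to 209 ± 68.8 CPM. Ergic1, a membrane protein of the intermediate compartment, and Yif1a, named after its values were seen, rose by log2 fold changes of 0.67 and 0.90. Exons of Ergic1 overlap Dusp1, and those of Cnih1 and Yif1a overlap other genes, all on the opposite strand. Of 9 tested Arf genes and Arf regulators, 3 were called higher, Arfgap1 among them. Arfgap1, which makes Arf1 hydrolyse GTP on COPI vesicles, was at 9.99 ± 4.08 CPM in sham against 34.5 ± 6.25 CPM under overload. Gbf1, the exchange factor that activates Arf at the early Golgi, rose from 54.1 ± 8.52 CPM in sham to 99.3 ± 16.2 CPM, and Arf6 by a log2 fold change of 0.56 (edgeR adjusted p = 0.0493). Exons of Gbf1 and Arf6 overlap other genes on the opposite strand.

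Of 18 tested tethers and Rab GTPases, 5 rose, where 15% of all tested genes did. Gorasp2, a stacking protein of the Golgi, stood at 107, 49.8 and 84.8 CPM in the sham libraries against 215, 217 and 226 CPM in those under overload, with a log2 difference of 1.42 ± 0.25 (SE; adjusted p = 5.07e-05, edgeR). Its groups were far apart. Uso1, the tether p115 that captures COPII vesicles, rose from 115 ± 15.4 CPM in sham to 229 ± 34.1 CPM, Trappc1 from 36.5 ± 6.62 CPM in sham to 87.1 ± 8.58 CPM and the GTPase gene Rab1a from 260.1 ± 45.7 CPM in sham to 398 ± 42.9 CPM. Trappc4, named after its values were seen, rose by a log2 fold change of 1.02. Exons of Trappc4 overlap Rps25 and those of Gorasp2 overlap Tlk1 and Gm26558, all on the opposite strand. Of 12 tested SNARE genes and partners, which drive membrane fusion, 3 were called higher, Gosr2 among them. Ykt6 rose from 171 ± 23.0 CPM in sham to 366 ± 66.5 CPM and Sec22b from 104 ± 27.5 CPM in sham to 176 ± 26.9 CPM. Gosr2 had only 7 counts in sham against 41 under overload, and its exons overlap another gene on the opposite strand.

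Of 8 tested golgins, the long tethers of Golgi membranes, 1 was called higher (Blzf1) and 1 lower (Gcc1). Over all tested genes the shares were 15% and 14.3%. The median log2 fold change of the golgins was -0.23. Gcc1, a golgin of the trans-Golgi, fell from 54.8 ± 6.4 CPM in sham to 21.0 ± 7.51 CPM, with a log2 difference of -1.40 ± 0.34 (SE; adjusted p = 0.00208, edgeR). Its exons overlap those of Arf5 on the opposite strand. Blzf1, a partner of Gorasp2, was at 14.9 ± 5.51 CPM in sham against 32.9 ± 4.73 CPM under overload, and its exons overlap those of Nme7 on the opposite strand. Of 7 transcription factors that act on secretory genes, 1 was called, Creb3, which had only 11 counts in sham against 52 under overload. It entered the test through its overloaded libraries only, and its exons overlap those of Gba2 and Tln1 on the opposite strand. Xbp1, Atf6, Atf6b, Atf4, Creb3l1 and Creb3l2 were not called (lowest edgeR adjusted p = 0.148). Xbp1 was at 185 ± 57.8 CPM in sham against 222 ± 65.8 CPM under overload, and the collagen regulator Creb3l1 at 206 ± 49.7 CPM in sham against 215 ± 43.4 CPM under overload. Transcript counts do not measure the splicing of Xbp1 or the cleavage of Atf6 and Creb3 proteins by which these factors become active.

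**Figure D5:**
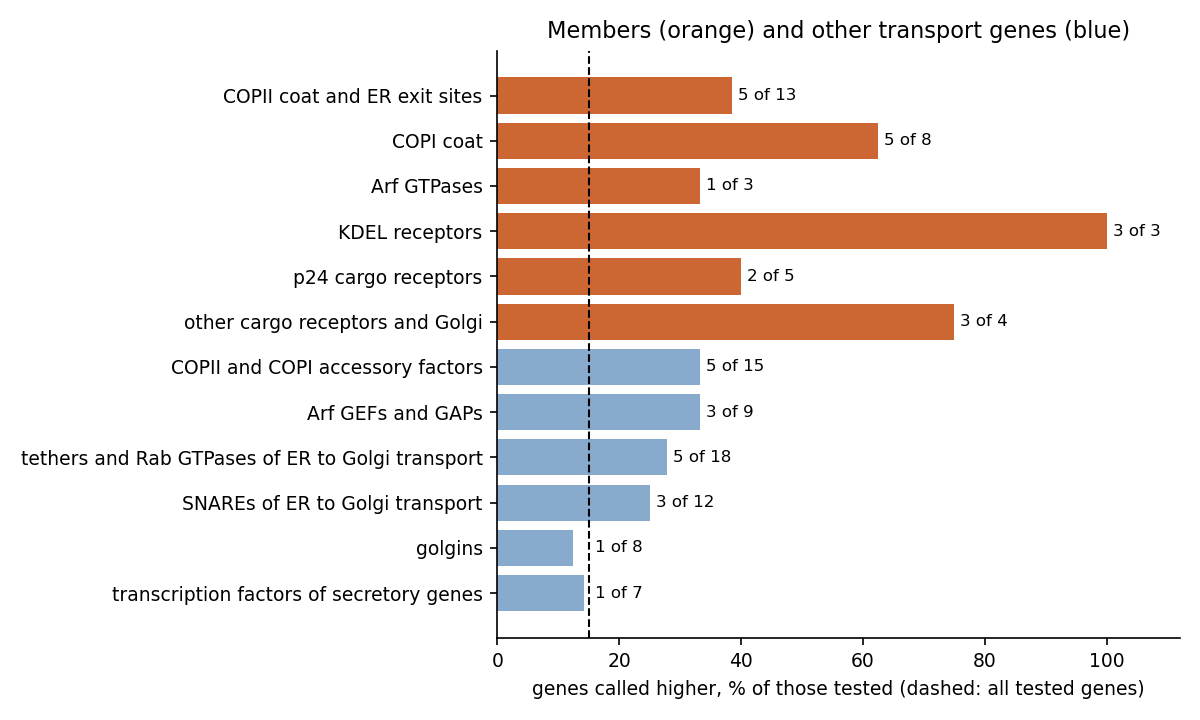
Share of tested genes called higher in overloaded FAPs (x axis, %) for the 6 groups of the 36 listed genes (orange) and for 6 lists of other transport genes (blue), with the counts beside each bar. The dashed line is the 15% of all tested genes. The blue bars include Arfgap1, Gosr2, Blzf1 and Creb3, which met the filter in all libraries of the overloaded group only. KDEL receptors (3 of 3) and the group with Lman1, Mcfd2 and Surf4 (3 of 4) reach farthest, and golgins (1 of 8) and transcription factors (1 of 7) stay short of the line.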

How the data were processed

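Per the labels' protocols, each tube received a set number of sorted cells, and library making followed the method of Hashimshony et al., taken here to be CEL-Seq2, which tags transcripts near their 3′ end. The authors deposited raw read counts per gene, whole numbers with no normalisation. Build GRCm38 is named in the submitters' processing notes, as are HISAT2 (2.2.1), Trim Galore (0.6.6), DESeq2 (1.28.1) and featureCounts (2.0.1). For strand setting, annotation release, multiply mapped reads and molecular identifiers, the steps taken were not given in the sources used here.

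Genes with enough counts (filterByExpr, minimum count 10, minimum total 15) numbered 7207 of the 28251 with a count. The 3 overloaded libraries were set against the 3 sham ones by edgeR's quasi-likelihood test (version 4.0.16, R 4.3.3) with robust dispersions, trimmed mean of M-values scaling and Benjamini-Hochberg adjustment over all 7207 genes. Genes were called at an adjusted p under 0.05, and the standard error is the log2 fold change over the square root of F. DESeq2 1.42.0 was an alternative. Positions are those of GENCODE M21 (GRCm38), which held all 54100 identifiers. Of the 36 genes, 10 share exon sequence with another gene, 9 of them on the opposite strand.

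The members, lists, markers, pairs, motifs and alternatives were chosen with earlier results of these data known. All 36 listed genes are reported. One marker list is not reported here. Of other transport genes, up to 4 called genes of each list are named in order of adjusted p, and any further one is said to be named after its values were seen. Replicate numbers are shared between groups but were not taken to pair the libraries.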

Additional observations from a re-analysis of the deposited data

How the results depend on the processing

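Each of the 14 alternatives kept all 19 called genes above 0, and 8 of them (Surf4, Sec13, Kdelr3, Kdelr2, Mcfd2, Lman1, Tmed9 and Copb2) stayed called in all 14. Another 6 (Sec23a, Sec24d, Copb1, Copg1, Copz1 and Tmed3) lost the call only with the background covariate (adjusted p of 0.0568 to 0.241, edgeR), 2 (Sec31a and Arf4) with the covariate and without sham replicate 2, and 3 (Sar1a, Cope and Kdelr1) in 7 alternatives each. With the background covariate the counts of higher genes were 9 of the 36, 1 in COPII, 2 in COPI, 4 of the other transport genes and 498 of all genes, with 449 lower over all genes and 0 among other transport genes. Scaling by library size only, or thinning to the smallest library (500402 counts), gave 2 lower among other transport genes. Leaving out 1 library at a time gave 14 to 20 higher of the 36, 3 to 6 in COPII, 4 to 5 in COPI, 11 to 17 higher and 1 to 2 lower of the other transport genes, and 5 to 8 pairs whose ratios did not overlap. Over all genes these fits called 853 to 1073 higher and 742 to 960 lower, of 7539 to 7943 tested. With fewer libraries ratios separate more easily, so those pair counts are not comparable with that of all libraries. No alternative called any of the 36 lower. Signs turned for Mia2 after thinning (log2 fold change -0.077), for Arf5 without overloaded replicate 2 (-0.028, in a range of -0.028 to 0.45 over left-out libraries), and for the Sar1a to Sar1b ratio without sham replicate 2 (0.14), sham replicate 3 (0.025) or overloaded replicate 1 (0.099), in a range of -0.36 to 0.14. None of these had been called, and the cause of these changes was not tested. With the replicate block the count was again 19 of 36, with 17 higher and 1 lower of the other transport genes. Deviations of same-numbered libraries correlated at 0.008 to 0.015 across genes, and those of other sham and overloaded libraries at -0.025 to 0.011. The numbers were not taken to pair the libraries, though at this depth such values cannot show that the libraries were unpaired. With a minimum count of 30, 33 of the 36 genes were tested. At this depth log2 fold changes had a median standard error of 0.33, so small changes in genes such as Sec16a and Sec24b were not detectable.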

Other observations

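Sar1b and Sec24a, both genes of the COPII coat, lie head to head on chromosome 11. Sec24a (51692264 to 51763634) is on the minus strand and Sar1b (51763687 to 51791925) on the plus strand, with 52 bases between their annotated starts. Their log2 fold changes were -0.43 (SE 0.24) and 0.62 (SE 0.29), and neither was called (edgeR adjusted p = 0.184 and 0.104). A difference between the neighbours was not tested.

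The counts of Arf5 and Gcc1 share a stretch of chromosome 6, where exons of the 2 genes overlap on opposite strands. Arf5 had 1569 counts in sham against 2620 under overload, and Gcc1 had 107 against 56. How many of these reads lie in the shared stretch was not analysed here.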
